A study of Mus musculus with 43 samples.

Results

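The 8 genes Dbp, Tef, Hlf, Nfil3, Nr1d1, Nr1d2, Bhlhe40 and Bhlhe41 encode the transcription factors that carry the circadian clock's rhythm to other genes and the accessory repressors that act back on the clock. They were chosen by name, and all 8 were found among the 53379 gene IDs of each RNA table. Their open-chromatin regions were those that overlapped the span of a gene, or lay within 10 kb of its start with that gene as the nearest protein-coding one. This gave 85 of 165184 regions in the female table and 54 of 192919 in the male table.

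The groups, in both sexes, were mice in environmental enrichment (EE), with larger cages, a running wheel, a tube, more nesting material and toys that were exchanged, and mice in standard housing (SH). All were wild-type Swiss Webster mice that were moved to these cages after weaning at postnatal day 25 and were 2 months old. Nuclei of the frontal cortex were fixed and sorted with an antibody to the neuronal protein NeuN, and gave nuclear RNA-seq libraries (6 EE and 6 SH in each sex) or ATAC-seq libraries, in which a transposase marks open chromatin (3 EE and 3 SH in females, 6 EE and 7 SH in males). The labels give no time of day for the collection of tissue and do not say that libraries came from separate animals, so a p-value here measures the spread between these samples. Female and male libraries came in separate tables with separate run names, and a difference between the sexes cannot be told apart from one between runs.

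As background, the clock of a mammalian cell is a loop in which CLOCK and ARNTL (BMAL1) bind E-boxes and activate genes, among them their own repressors. DBP, TEF and HLF are proline and acidic amino acid-rich (PAR) bZIP activators that bind D-boxes, and NFIL3 (E4BP4) is a repressor that competes for the same sites. NR1D1 and NR1D2 (REV-ERB alpha and beta) are nuclear receptors that bind heme and repress Arntl through ROR elements with the NCOR1 and HDAC3 corepressor complex. BHLHE40 and BHLHE41 (DEC1 and DEC2) are repressors that bind E-boxes, and in neurons Bhlhe40 and Nfil3 are also known as genes that respond to activity.

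The upstream sequences of the PAR bZIP genes are shown because Dbp, Tef and Hlf had the smallest p-values of the 8 genes in RNA and because an ATAC region of each table overlapped each window. The windows are the 250 bases before the RefSeq start on GRCm38.p6, the assembly of mm10, in the direction of transcription, and capitals mark an E-box (CACGTG) or a cyclic AMP response element (CRE, TGACGTCA). The RefSeq start differs from the start in the count table by 159 bases for Dbp, 22 for Hlf and 252 for the first Tef start, and the second Tef start lies 8993 bases downstream of the table's start.
Dbp, chr7:45704997-45705246, plus strand: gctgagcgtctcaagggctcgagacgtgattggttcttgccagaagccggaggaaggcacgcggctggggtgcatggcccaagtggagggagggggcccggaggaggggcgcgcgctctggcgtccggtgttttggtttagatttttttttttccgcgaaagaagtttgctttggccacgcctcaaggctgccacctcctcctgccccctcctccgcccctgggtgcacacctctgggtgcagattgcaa
Tef, first start, chr15:81802423-81802672, plus strand: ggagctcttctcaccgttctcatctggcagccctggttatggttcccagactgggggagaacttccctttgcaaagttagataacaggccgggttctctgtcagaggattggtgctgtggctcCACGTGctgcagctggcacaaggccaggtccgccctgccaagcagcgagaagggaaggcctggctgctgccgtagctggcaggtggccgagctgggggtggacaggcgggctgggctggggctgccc
Tef, second start, chr15:81811164-81811413, plus strand: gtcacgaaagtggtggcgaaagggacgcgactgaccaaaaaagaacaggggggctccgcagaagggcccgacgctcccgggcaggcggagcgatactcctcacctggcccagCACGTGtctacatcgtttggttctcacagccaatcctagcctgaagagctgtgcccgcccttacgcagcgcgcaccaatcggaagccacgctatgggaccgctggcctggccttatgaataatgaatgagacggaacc
Hlf, chr11:90390918-90391167, minus strand: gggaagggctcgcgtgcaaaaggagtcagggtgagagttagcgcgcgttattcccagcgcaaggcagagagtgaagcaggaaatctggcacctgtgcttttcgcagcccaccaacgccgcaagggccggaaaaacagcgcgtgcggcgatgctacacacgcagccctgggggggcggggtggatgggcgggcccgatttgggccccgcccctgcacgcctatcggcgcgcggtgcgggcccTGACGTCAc

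Both Tef windows held an E-box, 127 to 122 bases before the first start and 138 to 133 bases before the second. The Hlf window ended in a CRE, 9 to 2 bases before its start. The Dbp window held none of the letters searched for the clock motifs, and its CCAAT box (read as ATTGG on this strand) lay 222 to 218 bases before the start. Windows were matched by symbol for 7 of the 8 genes, and none was used for Bhlhe40. Among the others, an E-box lay 153 to 148 bases before the Bhlhe41 start, the E-box variant CACGTT lay on the opposite strand 28 to 23 bases before the Nr1d1 start, and the REV-ERB and ROR motif TAGGTCA lay on the opposite strand 12 to 6 bases before the Nfil3 start. Searched on both strands, the E-box was in 6.02% of 32851 windows of the same length, the variant in 3.85%, the D-box (TTATGTAA or TTACGTAA) in 0.931%, TAGGTCA in 2.23%, the CRE in 1.55% and CCAAT in 33.8%. A match is a string of letters and not a measured binding site.

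Depth, as total counts in M (mega), was 10.4 to 15.4 M in RNA libraries. It was 19.1 to 26.3 M in the ATAC libraries of females and 27.7 to 73.8 M in those of males. Female ATAC libraries had 23.6 to 26.3 M in EE and 19.1 to 23.8 M in SH, with SH replicate 2 the lowest. Male ATAC libraries had 38 to 68.1 M in EE and 27.7 to 73.8 M in SH. The summed level of 7 neuronal markers was 7490 to 7900 counts per M (CPM) in female EE and 7420 to 7870 CPM in female SH libraries. It was 7070 to 7420 CPM in male EE and 6970 to 7240 CPM in male SH libraries. Most of this sum came from Syt1 and Rbfox3. In females 3 of the 7 were higher in EE and 4 lower, and none was called. Among the higher ones were Gad1 (mean 44.1 CPM in EE and 37.7 CPM in SH) and Gad2 (48.9 and 39.8 CPM). In males Gad1 had 25.4 and 24.7 CPM and Gad2 had 25 and 26.9 CPM. The summed level of 28 glial and vascular markers, none of which had a count of 0 in all libraries of a table, was 818 to 1150 CPM in female EE and 895 to 1660 CPM in female SH libraries. Olig2, Tmem119, C1qa and Cldn5, which define precursors, microglia and vessels, averaged under 10 counts per library in both sexes. Female SH replicate 2 held the highest value, 1660 CPM, and stood apart from the other female libraries. In males this sum was 786 to 1070 CPM in EE and 810 to 926 CPM in SH libraries. Most of the sum in both sexes came from the astrocyte marker Slc1a2, so it mainly follows that gene. The mean level of Slc1a2 was 696 CPM in female EE, 804 CPM in female SH, 730 CPM in male EE and 666 CPM in male SH libraries. In these pools of nuclei, fewer nuclei of a type and less RNA per nucleus cannot be told apart.

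All 8 genes were detected in every RNA library, with 21 counts (Nfil3) or more, and all 8 were tested in both tables. Per kb of gene span, since the counts cover introns and exons, Tef was the highest in females, at 4.06 ± 0.316 CPM per kb in EE and 4.16 ± 0.351 CPM per kb in SH (SD, n = 6 each). Dbp (3.89 ± 0.695 CPM per kb in EE and 3.88 ± 0.448 in SH) and Nr1d1 (3.52 ± 0.533 and 3.65 ± 0.322) came next in females, and these 3 genes overlapped in range. Bhlhe40, Hlf, Nr1d2 and Bhlhe41 lay between 1.49 and 2.08 CPM per kb in the female group means. In males Nr1d1 was the highest (3.26 ± 0.361 CPM per kb in EE and 3.53 ± 0.353 in SH), followed by Tef (3.07 ± 0.105 and 3.41 ± 0.207), Dbp (2.51 ± 0.046 and 3.15 ± 0.305) and Bhlhe40 (2.45 ± 0.359 and 2.59 ± 0.382). Among these 4, neighbours in the male order overlapped in range in both housing groups, except for Tef above Dbp in EE. Hlf, Nr1d2 and Bhlhe41 followed, between 1.37 and 1.93 CPM per kb in the male group means. Nfil3 was the lowest of the 8 in each group, at 0.329 ± 0.113 CPM per kb in female EE, 0.234 ± 0.0598 in female SH, 0.274 ± 0.088 in male EE and 0.25 ± 0.0722 in male SH libraries.

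None of the 8 genes passed an adjusted p of 0.05 in RNA in either sex. In females 0 of 14587 genes were called by the edgeR quasi-likelihood test (0%), and 4 of the 8 had an unadjusted p under 0.05, 1 higher and 3 lower in EE, beside a background of 8.67% (4.53% higher and 4.14% lower). In males 6 of 14597 genes were called (0.0411%), and 2 of the 8 had an unadjusted p under 0.05, both lower in EE, beside a background of 8.03% (3.94% lower). The median log2 fold change of the 8 genes was -0.0438 in females and -0.0849 in males, where the median over all genes was 0.00193 and -0.00533. DESeq2 called 0 of the 8 in females, where it called 117 genes. In males, where it called 61 genes, it called 0 of Tef, Hlf and Nr1d2 and gave no adjusted p for the other 5, Dbp among them.

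Among the PAR bZIP activators, Dbp (ENSMUSG00000059824, chr7:45705088-45710203) gave the smallest p of the 8 genes in males. Its level in male EE libraries was 12.5 CPM at the lowest, 12.9 CPM at the median and 13.1 CPM at the highest, against 13.1, 16.5 and 17.4 CPM in male SH libraries. With the TMM scaling used here the groups did not overlap, EE lying below SH, as for 0.253% of all genes in that direction. SH replicate 1 lay above the highest EE library by less than the rounding. Scaled by total counts alone, EE replicate 2 (147 of 11146580 counts) lay above SH replicate 1 (153 of 11670026), so the groups overlapped. The means were 12.8 ± 0.235 CPM in EE and 16.1 ± 1.56 CPM in SH (SD, n = 6 each), a log2 fold change of -0.33 ± 0.07 (SE; 95% interval -0.48 to -0.18; edgeR adjusted p = 0.145). Dbp ranked 16 by p among the genes tested in that table. With no filter on low counts the adjusted p was 0.0419, and without SH replicate 1 it was 0.0528 at a log2 fold change of -0.38. In this comparison 6 of 7 astrocyte markers and all 6 oligodendrocyte markers were higher in EE. The 2 tested precursor markers were lower, and microglial (3 higher, 1 lower) and vascular markers (2 higher, 1 lower) were mixed. None of these markers was called. A covariate of the mean log2 CPM of the glial and vascular markers counted in every library, not the sum above, was also fitted. With it Dbp had a log2 fold change of -0.33 (edgeR adjusted p = 0.127). The 6 EE libraries spread by less than counting alone would give, with an SD of 1.84% of the mean beside a Poisson SD of 8.2% at a mean of 149 counts, while the SH libraries had an SD of 9.69% beside 6.97%.

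In females Dbp was at close mean levels in both groups, 19.9 ± 3.55 CPM in EE and 19.8 ± 2.29 CPM in SH (SD, n = 6 each). The female EE libraries covered 15.6 to 24.9 CPM, with a median of 18.5, and the SH libraries 16.9 to 23.9 CPM, with a median of 19.4. The log2 fold change was 0.0019 ± 0.11, with a 95% interval from -0.22 to 0.23. Its sign turned under relative log expression scaling (-0.00374). Dbp overlaps Sphk2 on the opposite strand by 737 bases, and whether counting used strand is not given in the sources used here.

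Tef (ENSMUSG00000022389, chr15:81802421-81826861) was lower in EE in males before adjustment. Male EE libraries had 71.2 CPM at the lowest, 74.5 CPM at the median and 78.5 CPM at the highest, against 76.6, 83.3 and 92.1 CPM in SH libraries. All 6 EE libraries lay below the SH median, and the ranges overlapped. The log2 fold change was -0.15 ± 0.04 (95% interval -0.24 to -0.06; edgeR unadjusted p = 0.00214, adjusted p = 0.313). In females Tef had a log2 fold change of -0.04 ± 0.06 (adjusted p = 0.92), from 99.2 ± 7.73 CPM in EE and 102 ± 8.59 CPM in SH libraries.

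Hlf (ENSMUSG00000003949, chr11:90336536-90390895) was the PAR bZIP gene with the smallest p in females. Female EE libraries had 91.1 CPM at the lowest, 99.6 CPM at the median and 106 CPM at the highest, against 104, 114 and 123 CPM in SH libraries. All 6 EE libraries lay below the SH median, and the 2 ranges overlapped at their edges. The log2 fold change was -0.20 ± 0.05 (95% interval -0.31 to -0.08; edgeR unadjusted p = 0.00171, adjusted p = 0.20), and it was -0.17 (adjusted p = 0.165) without female SH replicate 2. In that comparison all 7 astrocyte, all 6 oligodendrocyte and all 4 tested microglial markers were lower in EE. Precursor markers (1 higher, 1 lower) and vascular markers (2 higher, 3 lower) were mixed, and none of these markers was called. With the mean log2 CPM of the glial and vascular markers as a covariate, Hlf had a log2 fold change of -0.195 (adjusted p = 0.098). In males Hlf had 98.5 ± 5.86 CPM in EE and 105 ± 11.7 CPM in SH libraries, a log2 fold change of -0.09 ± 0.06 (adjusted p = 0.743).

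Nfil3 (ENSMUSG00000056749, chr13:52967209-52981073), the repressor at D-boxes, was the only one of the 8 with a higher value in EE at an unadjusted p under 0.05, in females. Female EE libraries had 1.88 CPM at the lowest, 4.89 CPM at the median and 6.13 CPM at the highest, against 2.25, 3.06 and 4.44 CPM in SH libraries. EE replicate 1 was the lowest of the 12 libraries while 5 of the 6 EE libraries lay above the SH median. The log2 fold change was 0.51 ± 0.23 (95% interval 0.02 to 1.0; edgeR unadjusted p = 0.0424, adjusted p = 0.558). In males the log2 fold change was 0.14 ± 0.21 (adjusted p = 0.906), from 3.8 ± 1.22 CPM in EE and 3.47 ± 1.0 CPM in SH libraries. Nfil3 had 21 to 94 counts per library. At its group means of 38.8 to 63.5 counts the counting error alone was 12.5% to 16% of the mean, and it is larger for the libraries with fewer counts.

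Of the REV-ERB genes, Nr1d2 (ENSMUSG00000021775, chr14:18204054-18239127) had 49.3 CPM at the lowest, 56 CPM at the median and 60.4 CPM at the highest in female EE libraries, against 57.4, 59.8 and 65.4 CPM in female SH libraries. 5 of the 6 EE libraries lay below the SH median, with a log2 fold change of -0.13 ± 0.06 (edgeR unadjusted p = 0.0333, adjusted p = 0.524). In males it was at 51.4 ± 2.28 CPM in EE and 51.3 ± 2.39 CPM in SH (SD, n = 6 each), and the 95% interval of the log2 fold change ran from -0.09 to 0.1. Nr1d1 (ENSMUSG00000020889, chr11:98767932-98775333) had a log2 fold change of -0.05 ± 0.09 in females (adjusted p = 0.928) and -0.11 ± 0.08 in males (adjusted p = 0.742). Its levels were 26.1 ± 3.94 CPM in female EE, 27 ± 2.39 CPM in female SH, 24.1 ± 2.67 CPM in male EE and 26.1 ± 2.62 CPM in male SH libraries. Nr1d1 overlaps Thra, a thyroid hormone receptor gene, by 1075 bases on the opposite strand.

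Of the DEC genes, Bhlhe41 (ENSMUSG00000030256, chr6:145858243-145865558) had 9.68 CPM at the lowest, 10.4 CPM at the median and 12.8 CPM at the highest in female EE libraries, against 11.2, 12.7 and 14 CPM in female SH libraries. The log2 fold change was -0.23 ± 0.1 (edgeR unadjusted p = 0.0322, adjusted p = 0.52), with 5 of the 6 EE libraries below the SH median. In males the means were 10 ± 0.901 CPM in EE and 9.99 ± 1.28 CPM in SH (SD, n = 6 each), with a 95% interval of the log2 fold change from -0.19 to 0.2. Bhlhe40 (ENSMUSG00000030103, chr6:108660629-108666925) was at 12 ± 2.55 CPM in EE and 11.9 ± 2.23 CPM in SH in females, a log2 fold change of 0.02 ± 0.14 (adjusted p = 0.985). In males it was at 15.4 ± 2.26 CPM in EE and 16.3 ± 2.4 CPM in SH, a log2 fold change of -0.08 ± 0.1 (adjusted p = 0.902). Genes not annotated as protein-coding overlap Bhlhe41 (Gm43909, by 1876 bases), Bhlhe40 (0610040F04Rik, by 306 bases) and Tef (Gm17597, by 193 bases), all on the opposite strand.

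**Figure D1:**
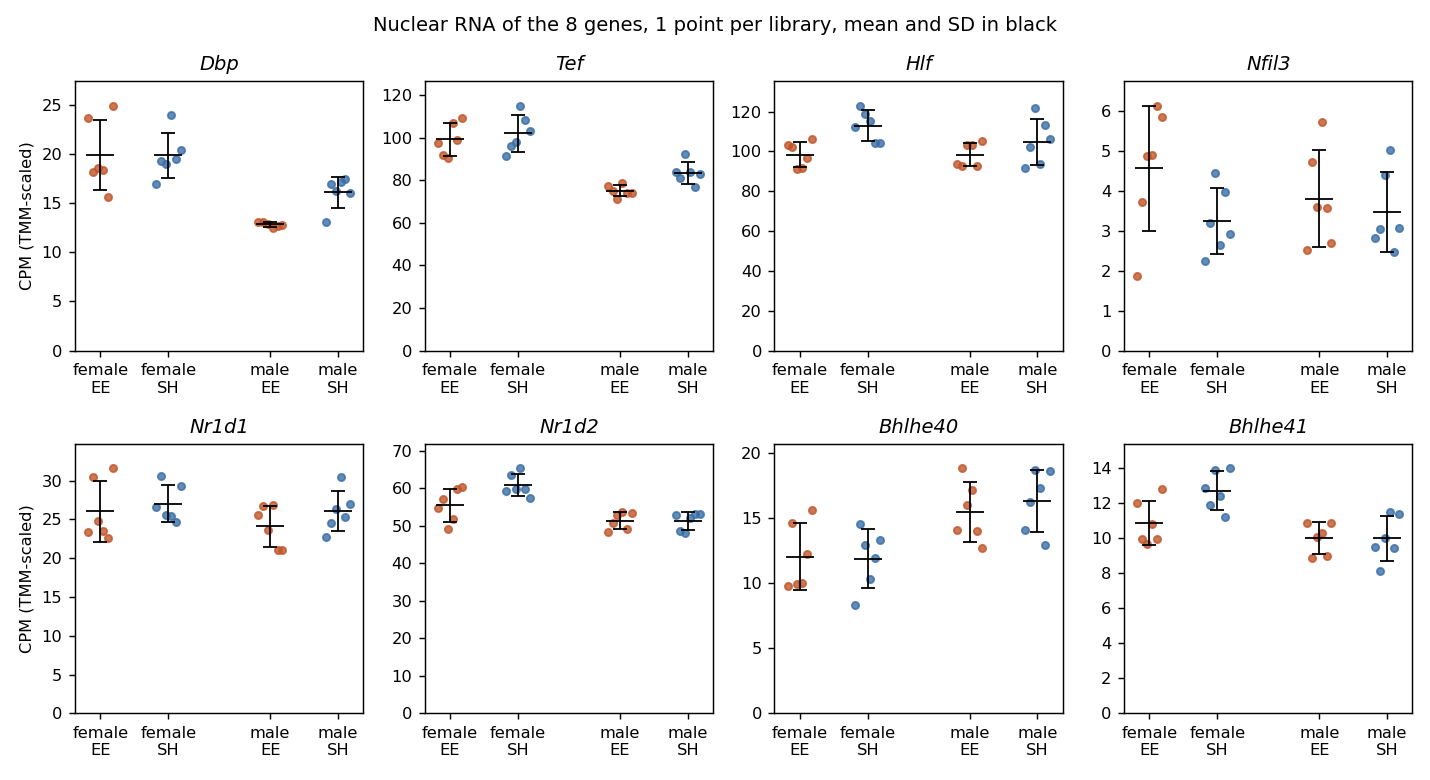
Level of each gene in CPM (vertical axis, from 0) in every nuclear RNA library, EE left of SH within each sex, with the mean and SD in black. The 6 male EE libraries for Dbp sit between 12.5 and 13.1 CPM, and the lowest male SH library is also at 13.1 CPM after rounding. The female groups overlap.

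**Figure D2:**
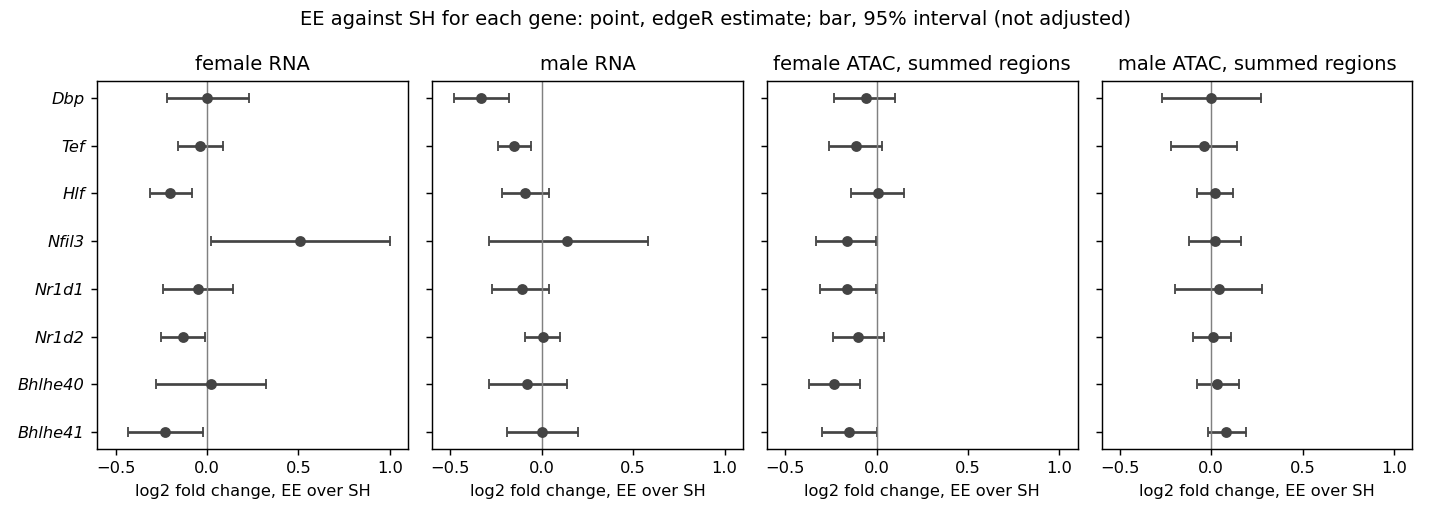
Log2 fold change of EE over SH (horizontal axis) with its 95% interval for each gene in the 2 RNA tables and for its summed ATAC regions in the 2 ATAC tables. Points left of 0 are lower in EE, as for Dbp in male RNA (-0.33) and Bhlhe40 in female ATAC (-0.23).

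The female and male fold changes were compared by the interaction of sex and housing in 1 fit of all 24 RNA libraries. Dbp had a female minus male difference of 0.33 ± 0.13 in log2 fold change (95% interval 0.06 to 0.6; edgeR unadjusted p = 0.0198, adjusted p = 0.423). None of the 8 passed an adjusted p of 0.05, and 1 of 15560 genes did (0.00643%). The next smallest unadjusted p-values were those of Nr1d2 (-0.14 ± 0.07, adjusted p = 0.597) and Bhlhe41 (-0.23 ± 0.13, adjusted p = 0.63), whose female values were the lower ones. For Nfil3 the difference was 0.37 ± 0.33, with a 95% interval from -0.31 to 1.06.

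The partners of these genes in the clock were taken from a list. Of its 24 core clock genes and cofactors, 22 were tested in each table. In females 12 were higher and 10 lower in EE, with a median log2 fold change of 0.023 and 0 called. The smallest female p-values were those of Fbxl21, which encodes an F-box protein that acts on cryptochromes (0.40 ± 0.22, adjusted p = 0.643), the nuclear receptor gene Rora (-0.12 ± 0.07, adjusted p = 0.664), Noct (nocturnin; 0.18 ± 0.11, adjusted p = 0.675) and the repressor Cry2 (0.09 ± 0.06, adjusted p = 0.709). In males 14 were higher and 8 lower in EE, with a median of 0.0231, and 1 was called.

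That gene was Arntl, which encodes the partner of CLOCK and is repressed by the REV-ERB proteins. Arntl rose to 141 ± 5.33 CPM in male EE libraries, against 121 ± 5.38 CPM in male SH libraries (SD, n = 6 each), a log2 fold change of 0.22 ± 0.04 (edgeR adjusted p = 0.0316). The call was lost in 7 of the 12 fits that left out 1 library, with edgeR adjusted p up to 0.107. The log2 fold change without 1 library lay between 0.21 and 0.24. The call was kept with relative log expression scaling (edgeR adjusted p = 0.0289), scaling by total counts alone (0.0419), no filter (0.000837) and the marker covariate (0.0124). DESeq2 also kept it (DESeq2 adjusted p = 3.28e-05). It was lost with the replicate number as a block (0.225, edgeR adjusted p = 0.0549). In male RNA these numbers join libraries whose column names hold unlike sample numbers, except at replicate 6. In females Arntl was at 132 ± 7.23 CPM in EE and 129 ± 9.57 CPM in SH, a log2 fold change of 0.03 ± 0.05. After Arntl the smallest male p-values were those of Fbxw11 (0.16 ± 0.04, adjusted p = 0.273), Clock itself (0.12 ± 0.04, adjusted p = 0.394) and Usp2, a deubiquitinase gene (-0.18 ± 0.07, adjusted p = 0.439).

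None of the 8 corepressor genes was called in either sex. Hdac3, the deacetylase of the NCOR1 complex, had the smallest p of them in females (0.20 ± 0.09, adjusted p = 0.559), and Tbl1x, a scaffold of that complex, in males (0.10 ± 0.04, adjusted p = 0.593). Of 10 genes known mainly from liver, kidney or brain as targets of PAR bZIP factors and NFIL3, 4 were tested in females and 5 in males, and none was called. Pdxk, the pyridoxal kinase gene that is a PAR bZIP target in mouse brain, had 21.4 ± 1.47 CPM in female EE and 18.6 ± 1.8 CPM in female SH libraries (0.20 ± 0.08, adjusted p = 0.475). In males it had 16.8 ± 0.833 CPM in EE and 17.3 ± 1.45 CPM in SH libraries (-0.04 ± 0.07, adjusted p = 0.923). Por, the P450 oxidoreductase gene, had a log2 fold change of 0.16 ± 0.07 in males (adjusted p = 0.618) and -0.01 ± 0.08 in females (adjusted p = 0.988).

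In open chromatin, 1 region of the 8 genes was called in females, at the 3′ end of Bhlhe40, beside 78 of 164926 regions in all (0.0473%). The region, chr6:108666831-108669197 on mm10, overlaps the last bases of Bhlhe40, is centred 7385 bases downstream of its start and is 2366 bases wide. Its levels were 17, 16.4 and 17.7 CPM in the 3 EE libraries, against 25.1, 29.2 and 25.4 CPM in the 3 SH libraries. The groups did not overlap, as for 6.3% of regions in that direction. The region fell to 17.1 ± 0.653 CPM in EE, against 26.6 ± 2.28 CPM in SH (SD, n = 3 each), a log2 fold change of -0.64 ± 0.12 (SE; 95% interval -0.87 to -0.41; edgeR adjusted p = 0.00447). The call was lost without EE replicate 2 (-0.61, adjusted p = 0.0737) and without SH replicate 2 (-0.56, adjusted p = 0.0989).

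All 10 female regions of Bhlhe40 had negative log2 fold changes, from -0.66 to -0.01, where 51.7% of all female regions were lower. Of female regions of 2 kb or more, as the called region and the start region are, 72.1% were lower. In 4 of the 10 the groups did not overlap, beside 6.3% of all regions in that direction. The count of lower regions was 9 of 10 with scaling by total counts and without EE replicate 2, EE replicate 3 or SH replicate 1. The region inside the gene, chr6:108663775-108665547, centred 4032 bases from the start, was at 7.71 ± 0.36 CPM in EE and 12.2 ± 0.4 CPM in SH (SD, n = 3 each), with a log2 fold change of -0.66 ± 0.15 (edgeR adjusted p = 0.0545). The region that holds the start, 4569 bases wide, had 93.2, 105 and 104 CPM in EE libraries, against 104, 114 and 122 CPM in SH libraries. Its log2 fold change was -0.17 ± 0.09 (adjusted p = 0.653). In the male table the same locus is 1 region of 13688 bases, chr6:108657775-108671463, which covers the whole gene, with 121 ± 7.97 CPM in EE and 120 ± 7.5 CPM in SH libraries (SD, n = 6 and 7), a log2 fold change of 0.02 ± 0.05. The male table thus holds no separate value for the 3′ end.

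**Figure D3:**
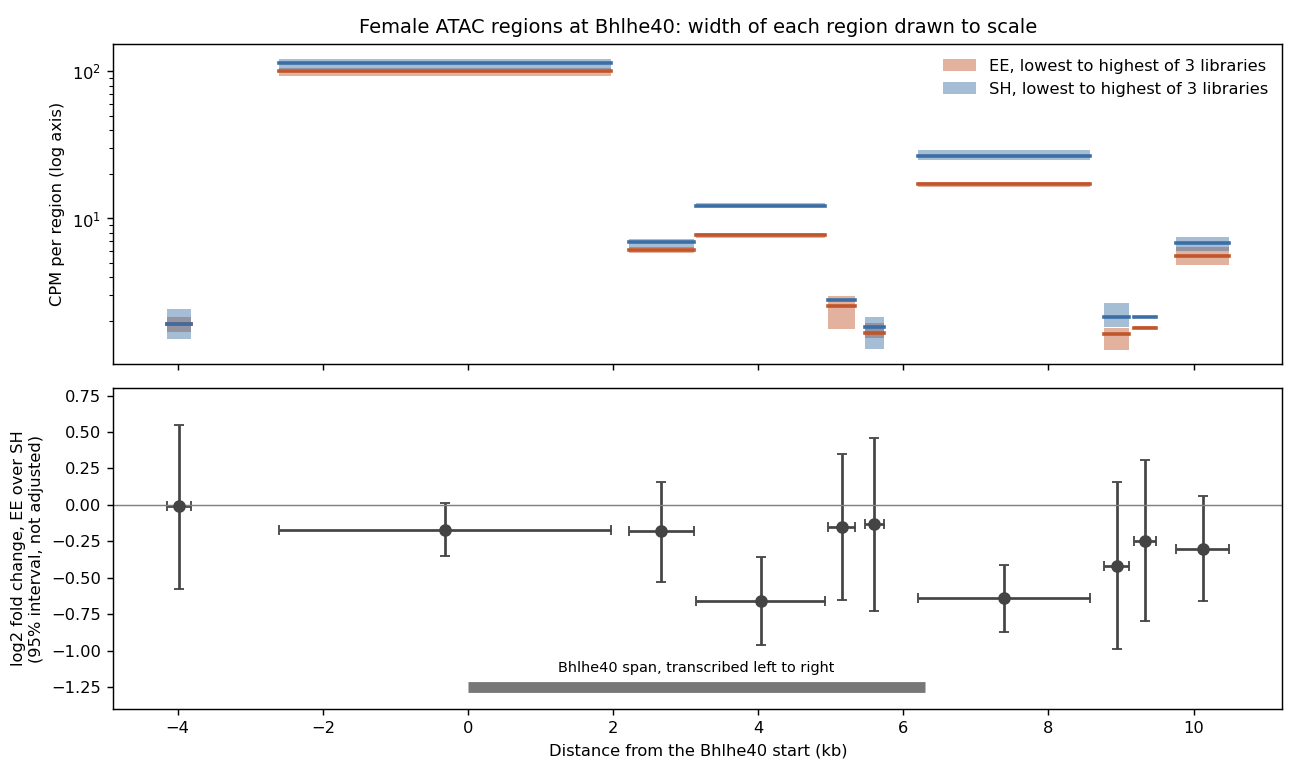
Female ATAC regions at Bhlhe40 by distance from its start in kb (horizontal axis), with CPM per region on a log axis (upper panel, bands from the lowest to the highest of 3 libraries, lines at the mean) and log2 fold change of EE over SH with its 95% interval (lower panel). The regions centred 7385 and 4032 bases from the start have EE bands below the SH bands.

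Over all 8 genes, 68 of the 85 female regions (80%) were lower in EE, where 51.7% of all regions and 71.2% of regions that hold a protein-coding start were lower. The count was 66 with relative log expression scaling, 64 with total counts alone, and 63 to 72 when 1 library was left out. An unadjusted p under 0.05 was reached by 7 of the 85, beside a background of 8.01%, and the groups did not overlap in 9 lower regions and 1 higher one, beside 6.3% and 6.46% of all regions. In males 25 of the 54 regions were lower, beside 50.3% of all regions, 1 had an unadjusted p under 0.05 beside a background of 4.54%, and 0 were called, as for all 192834 regions tested (0%). DESeq2 called 2 of the 85 female regions and 0 of the 54 male ones, with 122 female and 7 male regions called in all.

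All 7 female regions that hold the start of 1 of the genes had negative log2 fold changes, also under the other scalings and without each library in turn, where 71.2% of female regions that hold a protein-coding start were lower. In males 4 of the 8 start regions were lower, where 70.8% of male regions that hold a protein-coding start were. Nr1d1 had 49.2, 39.9 and 44.9 CPM at its start region in EE libraries, against 46.6, 58.3 and 51.7 CPM in SH libraries, a log2 fold change of -0.22 ± 0.1 (adjusted p = 0.562). The start region of Nr1d2 had 84.1, 92.1 and 92.7 CPM in EE libraries, against 93.8, 107 and 101 CPM in SH libraries, so its groups did not overlap (-0.17 ± 0.09, adjusted p = 0.668). Dbp lies wholly inside a region of 10132 bases, with 115, 97 and 112 CPM in EE libraries, against 96.9, 125 and 126 CPM in SH libraries (-0.10 ± 0.09, adjusted p = 0.849). The start regions of Tef, Hlf and Bhlhe41 had log2 fold changes of -0.14, -0.12 and -0.20, and the nearest region to the Nfil3 start had -0.15, none of them called.

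Away from the starts, the female region with the smallest p of Nr1d1 lay beyond its 3′ end, chr11:98766485-98767663. This stretch beyond the 3′ end lies inside Thra, which overlaps Nr1d1 there on the opposite strand. The region had 9.02, 8.44 and 9.95 CPM in EE libraries, against 11.9, 13.6 and 12.4 CPM in SH libraries. The groups did not overlap, and the log2 fold change was -0.47 ± 0.14 (edgeR unadjusted p = 0.00182, adjusted p = 0.253). For Nfil3 it lay upstream, chr13:52981202-52983179, with 10.6, 12.2 and 13.3 CPM in EE libraries, against 13.2, 15.2 and 19.9 CPM in SH libraries (-0.42 ± 0.14, adjusted p = 0.313). In the male table the region beyond the Nr1d1 3′ end had 5.04 ± 1.12 CPM in EE and 5.55 ± 1.42 CPM in SH libraries (-0.16 ± 0.16, adjusted p = 1.0).

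The female regions with the smallest p of Hlf, Nr1d2, Tef and Bhlhe41 lay inside or near the gene, and none was called. That of Hlf, the only one with a higher level in EE, is chr11:90366201-90366387, with 1.31, 1.12 and 1.55 CPM in EE libraries, against 1.04, 0.861 and 1.05 CPM in SH libraries. Its groups did not overlap, as for 6.46% of female regions in that direction, and its log2 fold change was 0.42 ± 0.36 (95% interval -0.3 to 1.14; edgeR adjusted p = 0.833) from 16 to 41 counts per library. That of Nr1d2, chr14:18236275-18236519, had 1.3 ± 0.376 CPM in EE, against 2.03 ± 0.555 CPM in SH libraries (-0.66 ± 0.31, adjusted p = 0.59). The groups overlapped there, as they did for Tef, chr15:81803818-81804589 (3.65 ± 1.12 CPM in EE and 4.85 ± 0.863 CPM in SH; -0.41 ± 0.22, adjusted p = 0.647), and Bhlhe41, chr6:145854573-145856529 (21 ± 3.2 CPM in EE and 24.4 ± 0.946 CPM in SH; -0.22 ± 0.12, adjusted p = 0.649). For Dbp the region with the smallest p was the one that holds its start. In the male table the log2 fold changes of the regions with the smallest p away from the starts ran from -0.36 (Nr1d2) to 0.29 (Bhlhe41), with groups that overlapped and none called.

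The counts of all regions of a gene were also summed, for each of the protein-coding genes with a region. A region given to more than 1 gene was counted in the sum of each. CPM of sums are per M of these summed counts, so they are not on the scale of the CPM of single regions. In females 2 of 16001 sums were called (0.0125%), and none of the 8 genes. Bhlhe40 had summed levels of 174, 184 and 180 CPM in EE libraries, against 206, 205 and 219 CPM in SH libraries, with no overlap (5.59% of sums in that direction). The log2 fold change was -0.23 ± 0.07 (95% interval -0.37 to -0.09; edgeR adjusted p = 0.266). The Nfil3 sum was 56.8, 58.8 and 61.9 CPM in EE libraries, against 63.1, 65.9 and 69.8 CPM in SH libraries, also without overlap (-0.16 ± 0.08, adjusted p = 0.652). The Hlf sum was the only female one with a positive log2 fold change, at 126 ± 4.41 CPM in EE and 125 ± 5.54 CPM in SH libraries (0.01 ± 0.07, a value whose sign turned when 1 library was left out). In males 0 of 16938 sums were called (0%), and the log2 fold changes of the 8 sums lay between -0.04 (Tef) and 0.08 (Bhlhe41).

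RNA and summed accessibility of the same gene can be set side by side, although the RNA and ATAC libraries are different samples. In females Bhlhe40 RNA had a log2 fold change of 0.02 ± 0.14 beside -0.23 ± 0.07 for its regions, and Nfil3 had 0.51 ± 0.23 in RNA beside -0.16 ± 0.08. Both values were negative for Bhlhe41 (-0.23 ± 0.1 in RNA and -0.15 ± 0.08 for its regions), Nr1d2 (-0.13 ± 0.06 and -0.10 ± 0.07), Nr1d1 (-0.05 ± 0.09 and -0.16 ± 0.07) and Tef (-0.04 ± 0.06 and -0.11 ± 0.07). Dbp (0.0019 ± 0.11 and -0.06 ± 0.08) and Hlf (-0.20 ± 0.05 and 0.01 ± 0.07) each had 1 value near 0. In males Dbp had -0.33 ± 0.07 in RNA beside -0.00075 ± 0.13 for its regions, with 72.1 ± 13.3 CPM in EE and 72 ± 12.9 CPM in SH libraries. The other 7 male genes had RNA values between -0.15 (Tef) and 0.14 (Nfil3) and region values between -0.04 (Tef) and 0.08 (Bhlhe41).

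Across the 12 RNA libraries of a table, with EE and SH pooled, Nr1d1 and Bhlhe40 varied alike in both sexes, with a Pearson r of log2 CPM of 0.68 in females and 0.69 in males. Dbp and Tef had r of 0.58 in females and 0.57 in males, and Nfil3 and Bhlhe40 had 0.44 and 0.72. The r of Hlf with Nr1d2 was 0.82 in females and 0.02 in males, and that of Hlf with Bhlhe41 was 0.67 and 0.08. Libraries share depth, nuclear composition and housing group, so these values are descriptions over 12 points each.

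**Figure D4:**
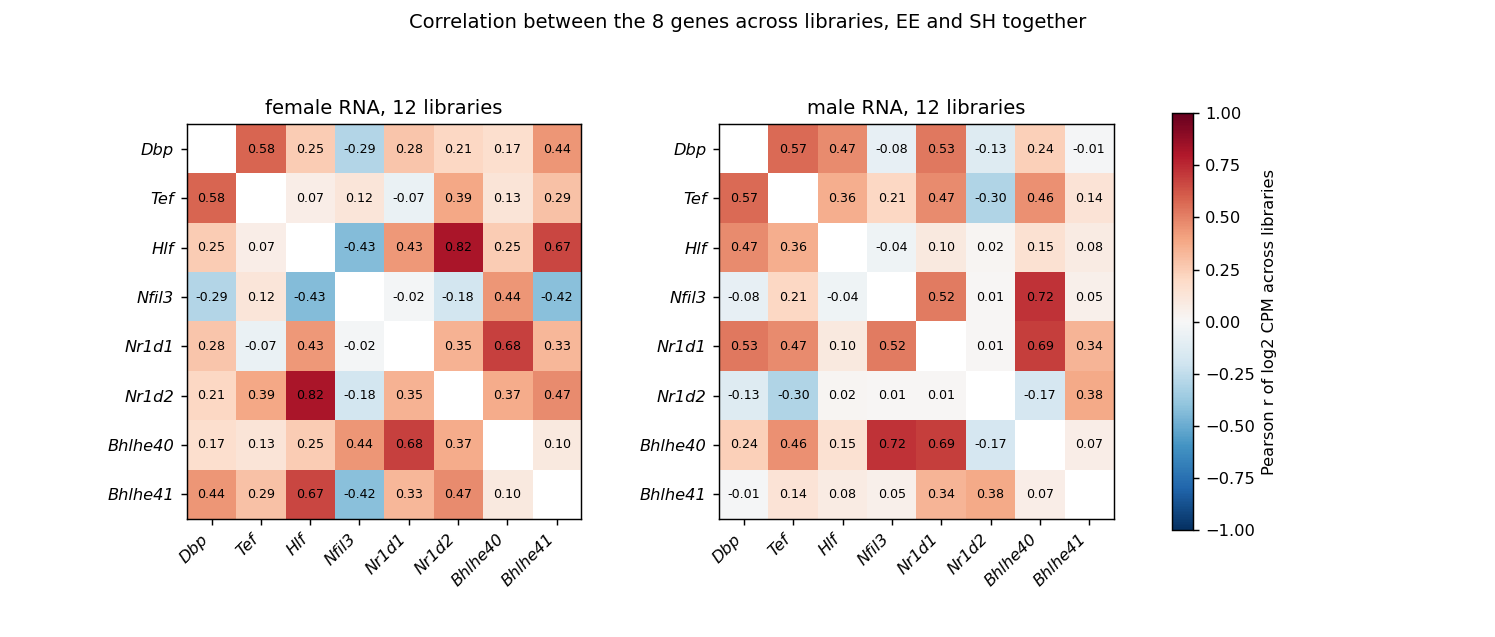
Pearson r of log2 CPM between each 2 of the 8 genes over the 12 female (left) and 12 male (right) RNA libraries, EE and SH together. Nr1d1 with Bhlhe40 (0.68 and 0.69) and Dbp with Tef (0.58 and 0.57) have like values in both sexes, while Hlf with Nr1d2 does not (0.82 and 0.02).

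By the lower of the female and male r among 9427 genes, the genes that varied most like Dbp were Pdzd2 (0.75 in females and 0.70 in males) and Epha8, an ephrin receptor gene (0.70 and 0.78). Those most like Tef were Cacna1g, a T-type calcium channel gene (0.77 and 0.72), and Necab3 (0.82 and 0.70), and those most like Hlf were Cntfr, a receptor gene for ciliary neurotrophic factor (0.72 and 0.75), and Zfp809 (0.70 and 0.67). For Nfil3 they were Cxadr (0.88 and 0.78) and the AP-1 factor gene Fosl2 (0.78 and 0.80). For Nr1d1 they were Tle3 (0.74 and 0.81) and the histone methyltransferase gene Setd1b (0.78 and 0.72), and for Nr1d2 Ftsj1 (0.75 and 0.64) and Rap1a (0.62 and 0.65). For Bhlhe40 they were Elmsan1 (0.77 and 0.82) and Spry2, an inhibitor of receptor tyrosine kinase signalling (0.73 and 0.74), and for Bhlhe41 Zbtb8a (0.79 and 0.72) and Glyr1 (0.69 and 0.70). Each r is over 12 libraries, and none of them was tested.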

How the data were processed

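The deposited tables hold raw counts, with no normalization by the authors: per the labels, RNA counts cover introns and exons of each gene, and ATAC counts are per region, each sex having regions of its own. The genome build was mm10, and the submitters' processing notes name, with no order or role, DiffBind 3.2.2, edgeR, MACS2 2.1.1, STAR 2.5.4, DESeq2 1.16.1, bedtools and SAMtools 1.3.1. How reads were counted, whether by strand, and how regions were merged is not given in these sources. The gene length in the female RNA table equals the whole span, so levels per kb are per kb of span. Columns of the male RNA table were read by position, because its header lacks 1 name. Coordinates are those of the tables, which do not say whether region starts are 0-based or 1-based.

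Each table was fitted alone on all genes or regions with R 4.3.3 and edgeR 4.0.16: TMM scaling, the filterByExpr filter, then the quasi-likelihood F test (robust) for EE against SH. A call is a Benjamini-Hochberg adjusted p under 0.05 over all features tested. A positive log2 fold change is higher in EE. The SE was taken as the absolute log2 fold change over the root of F, and intervals are 95% and not adjusted. Libraries held 10.4 M to 73.8 M counts. No 2 libraries agreed within sampling noise. The scripts were tested on simulated data.

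Regions were given to every protein-coding gene whose span they overlapped. They were also given to the gene with the nearest of 20915 protein-coding starts, if within 10 kb. In all, 7486 female and 6869 male regions were given to more than 1 gene. Of 53379 gene IDs, 53274 matched a symbol. Named are all 8 genes, per gene the region at or nearest the start and that with the smallest p, the called genes of the clock list or its 4 with the smallest p, and the 2 genes per member with the largest lower r of the sexes (average log2 CPM of at least 2). Other Bhlhe40 regions and the genes named from the other lists were picked after their values were seen. The genes, lists and tests were chosen with earlier results of these data known. Alternatives were other scalings, no filter, DESeq2 1.42.0, a replicate block, a marker covariate, and leaving out each library. The covariate was the mean log2 CPM of the glial and vascular markers with a count in every library.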

Additional observations from a re-analysis of the deposited data

Results flagged for a closer look

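In 4 of 78 groups of 4 to 10 libraries tested, 1 library lay apart from the others by Dixon's criterion, and chance gives about 1 in 20, or 3.9 here. Dbp in male RNA was at 13.1 CPM in SH replicate 1, where the other 5 SH libraries lay between 16 and 17.4 CPM; without it the log2 fold change was -0.377 (adjusted p = 0.0528). The summed regions of Tef in male ATAC were at 70.4 CPM in SH replicate 6, where the other SH libraries lay between 90.5 and 99.5 CPM, and the Tef region centred 84 bases from the start was at 17.6 CPM in the same library, where the others lay between 23.3 and 27.4 CPM. Without that library the 2 Tef log2 fold changes were -0.0947 (adjusted p = 0.914) and -0.101 (adjusted p = 0.888). The Nr1d2 region centred -86 bases from the start in male ATAC was at 59.6 CPM in SH replicate 1, where the others lay between 66.2 and 70.5 CPM.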

How the results depend on the processing

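With relative log expression scaling, total counts alone, no filter, DESeq2, the replicate block and the marker covariate, in that order, the members called were 0 in each for female RNA (0 as reported), male gene sums, female gene sums and the interaction. For male RNA they were 0, 0, 1, 0, 0 and 0, and the 1 was Dbp (-0.318, adjusted p = 0.0419). The covariate was used in RNA only. For female regions they were 1, 1, 1, 2 and 1, and for male regions 0 throughout. All genes called were 0, 1, 168, 117, 95 and 40 in female RNA (0 as reported), 6, 7, 136, 61, 3 and 10 in male RNA (6 as reported), and 1, 0, 92, 91, 28 and 28 for the interaction (1 as reported). All regions called were 85, 101, 78, 122 and 34 in females (78 as reported) and 0, 0, 0, 7 and 1 in males (0 as reported), and sums called were 2, 11, 2, 25 and 3 in females (2 as reported) and 0 in males. The cause of these differences was not tested. DESeq2 gave no adjusted p for 3960 genes in female RNA, 11037 in male RNA, 11162 in the interaction and 95927 female regions. Among the members these were Dbp, Nfil3, Nr1d1, Bhlhe40 and Bhlhe41 in male RNA and the interaction and 2 female regions, so DESeq2 could not call them; its log2 fold change of Dbp in males was -0.327.

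Replicate numbers were not taken as pairs in the main fits, since no table had a correlation over 0.1 for every same-numbered pair. This rule cannot show that libraries were unpaired, and female RNA libraries may have been pairs. In female RNA, EE and SH replicates of the same number also share the sample number in their column names. The blocked female RNA fit called 95 genes, beside 0 without the block, and 0 members. In male RNA only replicate 6 joins libraries with equal numbers in their column names, so the block there joins mostly unlike ones. The correlation of same-numbered libraries ran from 0.0362 to 0.306 in female RNA and -0.0299 to 0.226 in male RNA. In ATAC it ran from -0.0714 to 0.0703 in females and -0.103 to 0.171 in males. In female RNA all 6 correlations were positive, and 3 were over 0.1 and best with their own number. In no table did every library correlate best with its own number. Male ATAC SH replicate 7 has no partner and left the blocked fit, and 34 regions were called in the blocked female fit. Arntl had an adjusted p of 0.0549 under the block.

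Signs turned for values near 0: Dbp in female RNA (-0.00374 with relative log expression scaling, -0.00344 with DESeq2, -0.00689 with the block, -0.00269 with the covariate), Nr1d2 in male RNA (-0.0259 with total counts, -0.0118 with the covariate), Bhlhe41 in male RNA (-0.0291 and -0.00593), the Dbp region centred 2772 bases from the start in males (0.0171 with the block) and the male Dbp sum (0.00019, 0.00491, 0.00264 and 0.0241 with relative log expression scaling, total counts, DESeq2 and the block). Under these settings 348 other fold changes kept their direction and call, 12 from DESeq2 kept their direction but had no adjusted p, and Dbp in male RNA passed the threshold in 1.

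Leaving out 1 library at a time gave 68 turned signs and 2 lost calls among 821 fold changes. Members called were 0 to 1 in female regions and 0 elsewhere. All features called were 0 to 85 in female RNA, 0 to 11 in male RNA, 22 to 333 in female regions, 0 to 3 in male regions, 1 to 326 in female sums, 0 in male sums and 0 to 39 for the interaction. Signs turned in female RNA for Dbp (-0.0777 to 0.0643), Tef (-0.0693 to 0.00177) and Bhlhe40 (-0.0708 to 0.087). Signs turned in male RNA for Nfil3 (-0.0215 to 0.275), Nr1d2 (-0.0129 to 0.0217) and Bhlhe41 (-0.0484 to 0.0476). Signs turned in male ATAC regions for Dbp region at 2772 (-0.0966 to 0.0616), Tef region at 84 (-0.112 to 0.0207), Nfil3 region at 634 (-0.0528 to 0.0365), Nfil3 region at 7531 (-0.0329 to 0.218), Nr1d1 region at 3188 (-0.0374 to 0.109), Bhlhe40 region at 3990 (-0.0128 to 0.0387) and Bhlhe40 region at -4250 (-0.0925 to 0.0143). Signs turned in female ATAC gene sums for Dbp (-0.159 to 0.00608) and Hlf (-0.0266 to 0.0343). Signs turned in male ATAC gene sums for Dbp (-0.0753 to 0.0633), Tef (-0.0947 to 0.00161), Hlf (-0.0153 to 0.0369), Nfil3 (-0.0143 to 0.0531), Nr1d1 (-0.0347 to 0.0972) and Nr1d2 (-0.0251 to 0.0279). Signs turned in the interaction for Nr1d1 (-0.0109 to 0.097) and Bhlhe40 (-0.00143 to 0.158). The called Bhlhe40 region had -0.673 to -0.561. Chosen after seeing the data, the count of female member regions that were lower ran from 63 to 72 of 85 without 1 library.

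At 3 libraries a group, female ATAC gives wide intervals for regions under a few CPM, and Nfil3 RNA is limited by its 21 to 94 counts per library. Male and female regions differ in their borders, so a region of 1 table is not a repeat of the other.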
